A study of Mus musculus with 12 samples.

Results

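The immediate early genes Fos, Fosb, Jun, Junb, Egr1, Atf3, Nr4a1, Ier2, Ier3 and Myc were followed across adult mouse cardiomyocytes with and without desmin, the muscle intermediate filament protein encoded by Des. These 10 genes were chosen by name, with earlier results of these data known, out of 21493 genes counted in each library. All 10 were among the 13158 genes that passed the filter on low counts and were tested. The RNA came from the hearts of mice 3 months old, of genotype Des+/+ (desmin present) or Des-/- (desmin absent), which had either not swum (non-swim) or undergone swimming as an exercise stress (swim). Each of the 4 groups held 3 libraries of polyA RNA, and each library pooled cells of several mice, so the spread between libraries is one between pools. In all groups the cells were released by perfusion with trypsin and collagenase D and harvested at once.

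Immediate early genes are transcribed within minutes of a stimulus by factors that are already present in the cell, without new protein synthesis. Fos, Fosb, Jun, Junb and Atf3 encode leucine zipper proteins of the AP-1 and ATF families, which bind DNA as dimers. Egr1 encodes a zinc finger factor, Nr4a1 an orphan nuclear receptor and Myc a basic helix-loop-helix factor that drives growth, while Ier2 and Ier3 are named as immediate early response genes. Stretch, growth factors and stress induce them in the heart, and enzymatic release of cells from tissue is also known to induce them.

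Des was measured first, as the check of the labels. It lay between 50.3 and 100.5 CPM (counts scaled to each library's total) in the 6 Des-/- libraries and between 973 and 3647 CPM in the 6 Des+/+ libraries. Reads in genes ranged from 4320819 to 12072443 per library and were fewest in the Des-/- swim group. All 8 markers of cardiomyocytes were detected in every library, but their summed level was 62060 to 92910 CPM in Des+/+ non-swim, 29680 to 47460 in Des+/+ swim, 5828 to 27860 in Des-/- non-swim and 13550 to 23870 in Des-/- swim libraries. The 8 fibroblast markers summed to 2179 to 3682 CPM in Des+/+ libraries, 7960 to 39660 in Des-/- non-swim and 3638 to 13420 in Des-/- swim libraries. Replicate 3 of each Des-/- group stood apart from the other libraries of its group, with the highest fibroblast and macrophage sums. In such bulk samples, fewer cells of a type and less RNA per cell cannot be told apart.

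The members are compact genes. Their principal transcripts (GENCODE M21) have 1 to 7 exons, with a median of 2.5 against 9 over 13146 tested protein-coding genes, and 10 of 10 lie below that median. Their spans run from 1240 bp for Ier3 (GRCm38 chromosome 17, 35821684 to 35822923) to 47744 bp for Atf3 (chromosome 1, 191170296 to 191218039), and 9 of 10 are shorter than the median of 24901.5 bp. Fos lies on chromosome 12, 85473890 to 85477273, Fosb on chromosome 7, 19302696 to 19310051, and the principal transcripts of Jun, Junb and Ier2 consist of 1 exon each. For Junb, a further spliced transcript in the annotation lengthens the gene to 4235 bp.

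RefSeq promoter windows (GRCm38.p6) were matched for 7 of the 10 members, and not for Egr1, Ier2 or Myc. In the 250 bases before the start, the letters TGACG, the core of the cAMP response element, stood on either strand in 5 of 7 windows, against 17.8% of 32851 windows of the same length. TATAAA was found in 1 of 7 windows, that of Fos, against 12.4%, and the CArG box, the site known for serum response factor, in 0 of 7 against 1.47%. The AP-1 letters TGANTCA were in 0 of 7 windows against 6.75%, and the Egr letters GCGNGGGCG in 2 of 7 against 4.7%. A match describes the letters only and shows no binding. Sites farther than 250 bases before the start were not searched, so 0 matches do not show that a gene lacks the site. The 150 bases before the start are printed for 4 of the 5 members that hold TGACG there, all called higher in Des-/- without swimming. Of the members whose window held no TGACG, Jun was called higher there too and Ier3 was not. Atf3, which holds it at 7 bases before its start, is not printed. Capitals mark TGACG (on either strand, so CGTCA in the other) and TATAAA.
Fos, chr12:85473740-85473889, plus strand: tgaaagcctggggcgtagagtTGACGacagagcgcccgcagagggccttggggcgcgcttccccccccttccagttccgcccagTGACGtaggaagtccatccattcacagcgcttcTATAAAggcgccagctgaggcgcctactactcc
Fosb, chr7:19310046-19310195, minus strand: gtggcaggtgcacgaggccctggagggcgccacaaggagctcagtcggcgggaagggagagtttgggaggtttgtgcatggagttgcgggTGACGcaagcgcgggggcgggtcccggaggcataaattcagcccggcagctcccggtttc
Junb, chr8:84978749-84978898, minus strand: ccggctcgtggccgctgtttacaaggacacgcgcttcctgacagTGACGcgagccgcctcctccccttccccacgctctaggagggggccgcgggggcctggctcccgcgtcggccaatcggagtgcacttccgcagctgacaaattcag
Nr4a1, chr15:101266696-101266845, plus strand: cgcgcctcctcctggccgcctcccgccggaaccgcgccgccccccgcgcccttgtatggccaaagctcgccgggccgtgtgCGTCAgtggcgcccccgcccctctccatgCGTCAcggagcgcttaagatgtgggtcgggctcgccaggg
In the printed bases, Fos holds TGACG at 129 and 66 bases before its start, Fosb at 60, Junb at 106, and Nr4a1 at 69 and 40. Nr4a1 also holds it at 233 and 213, beyond the printed bases.

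The first comparison was between Des-/- and Des+/+ libraries of mice that had not swum. All 10 members had a higher mean in Des-/- than in Des+/+ non-swim libraries, and 9 of 10, all but Ier3, were called higher at an edgeR adjusted p under 0.05. Of all genes tested, 32.0% were called in either direction and 14.0% higher. The median log2 change of the members was 1.76 (range 1.04 to 3.15), against 0.0387 over all genes. Libraries of the 2 groups did not overlap for 8 members, where 23.0% of all genes were higher without overlap.

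Among the AP-1 genes, Fos lay at 164, 313 and 253 CPM in the Des+/+ non-swim libraries (replicates 1 to 3) and at 527, 613 and 1274 CPM in the Des-/- non-swim libraries. Every Des-/- library was above every Des+/+ library. The log2 change of Fos was 1.73 (SE 0.39, edgeR adjusted p 0.00685). Fosb, its close relative, lay at 27.2, 73.5 and 72.5 CPM in Des+/+ and at 135, 294 and 1114 CPM in Des-/- non-swim libraries. Its log2 change of 3.15 (SE 0.68, adjusted p 0.00584) was the largest of the members, and replicate 3 of the Des-/- group was far above the other libraries.

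Jun, the usual partner of Fos in the dimer, rose from 255, 385 and 455 CPM to 802, 696 and 987 CPM, a log2 change of 1.18 (SE 0.25, adjusted p 0.00524). Junb rose from 263, 425 and 382 CPM to 1183, 810.5 and 1706 CPM, by a log2 of 1.79 (SE 0.31, adjusted p 0.00182). Neither gene had overlapping groups, and the spread of Jun among the Des-/- libraries was narrow beside that of Fosb. Atf3, a stress-induced member of the ATF family, lay at 12.6, 18.7 and 45.1 CPM in Des+/+ and at 18.6, 70.8 and 348 CPM in Des-/- non-swim libraries. The groups overlapped, and the log2 change of Atf3 was 2.51 (SE 0.87, adjusted p 0.046).

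Egr1, Nr4a1 and Myc were also called higher. Egr1 lay at 239, 378 and 355 CPM in Des+/+ and at 842, 814 and 1509 CPM in Des-/- non-swim libraries, a log2 change of 1.70 (SE 0.35, adjusted p 0.00436). Nr4a1 lay at 35.5, 89.6 and 135 CPM and at 175, 169 and 658 CPM, a log2 change of 1.95 (SE 0.66, adjusted p 0.0425). Neither Egr1 nor Nr4a1 overlapped between the genotypes. Myc was the lowest member, at 3.42, 6.08 and 6.41 CPM in Des+/+ and at 8.19, 10.9 and 80.5 CPM in Des-/- non-swim libraries. Its groups did not overlap, but replicates 1 and 2 of Des-/- lay close to the Des+/+ libraries, and the log2 change was 2.64 (SE 0.92, adjusted p 0.0463).

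Of the Ier genes, Ier2 rose from 171, 239 and 244 CPM to 709, 418 and 588 CPM, by a log2 of 1.39 (SE 0.23), with the smallest adjusted p of the members at 0.00167. It was the member for which replicate 3 of Des-/- non-swim was not the highest library of that group. Ier3 lay at 33.5, 56.6 and 73.7 CPM in Des+/+ and at 60.5, 84.1 and 192 CPM in Des-/- non-swim libraries. The groups overlapped, and its log2 change of 1.04 (SE 0.38, adjusted p 0.0565) did not pass the test.

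**Figure D1:**
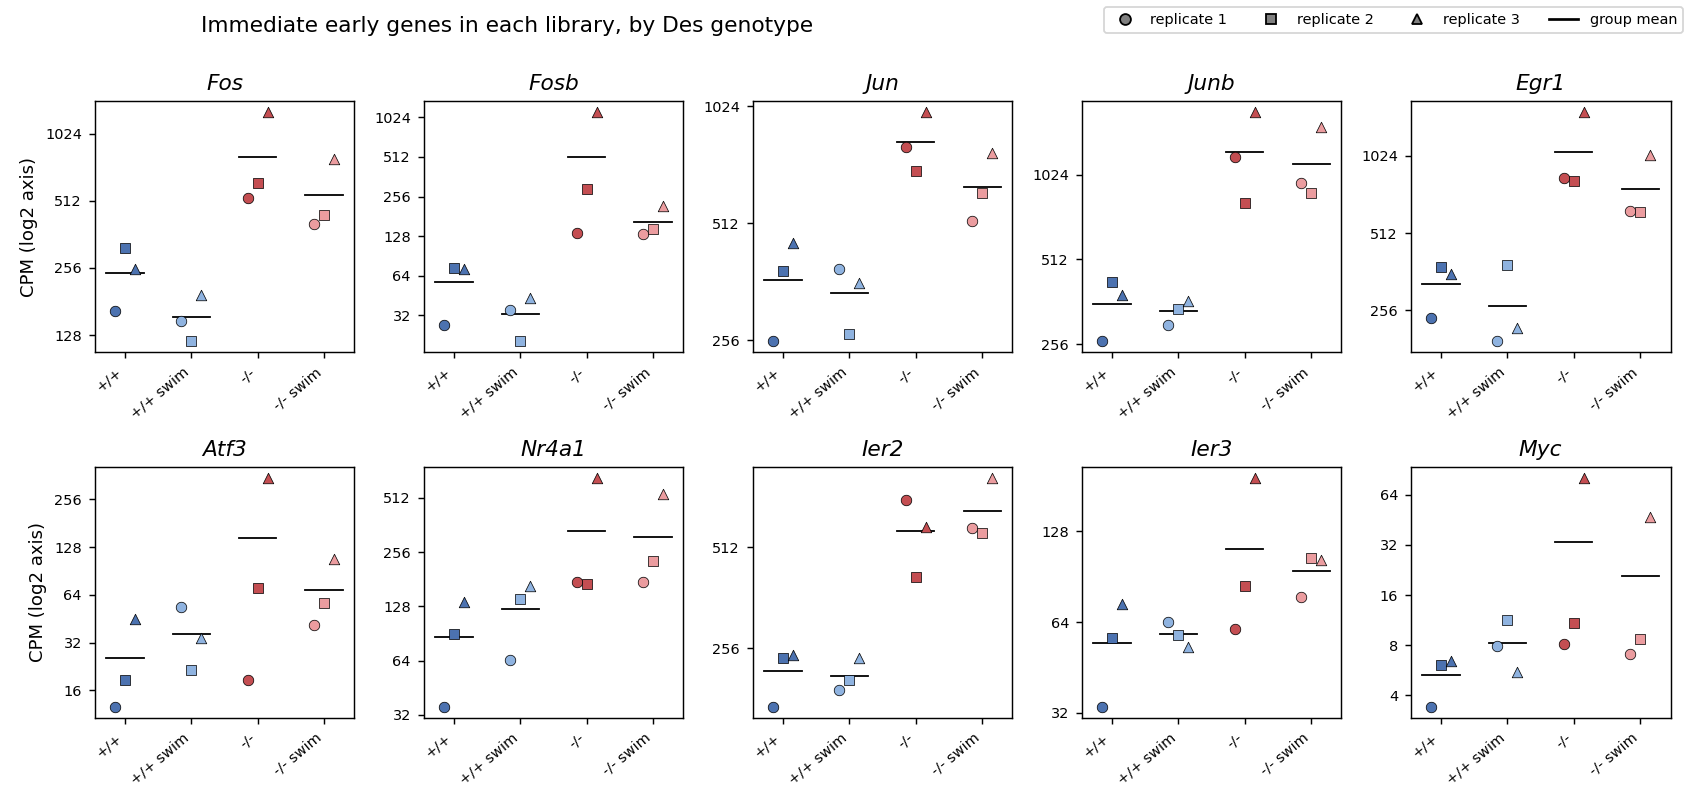
Level of each member in the 12 libraries, in CPM on a log2 axis, by group. Points are libraries, shapes mark the replicate number and bars the group means; for Fos the Des+/+ libraries lie between 120.3 and 313 CPM and the Des-/- libraries between 404 and 1274 CPM.

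Part of these calls rested on 1 library. In the fits that each left out 1 of the 6 libraries compared, Fos, Fosb, Jun, Junb, Egr1 and Ier2 were called in all 6. Without Des-/- non-swim replicate 3 the log2 change fell to 1.23 for Fos and 1.89 for Fosb, both still called. The log2 change without that library was 0.79 for Atf3, 0.99 for Nr4a1, 0.84 for Myc and 0.40 for Ier3, and none of the 4 was called. The calls of Atf3, Nr4a1 and Myc were also lost without Des+/+ non-swim replicate 1 (log2 changes 2.18, 1.57 and 2.41) and without replicate 2 (2.33, 1.97 and 2.74), and that of Myc without replicate 3 of that group (2.80). Ier3 was called without replicate 1 or 2 of the Des-/- non-swim group (1.34 and 1.21). In a fit of the 6 libraries alone, Atf3 (adjusted p 0.105), Nr4a1 (0.0696) and Myc (0.0657) were not called, and Ier3 was called with upper-quartile scaling (0.0356) and with no filter (0.0397).

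The same comparison was made after swimming. All 10 members again had the higher mean in Des-/- libraries, and 6 of 10 were called higher, namely Fos, Fosb, Jun, Junb, Egr1 and Ier2. Of all genes tested, 10.6% were called and 5.01% called higher in this comparison. The members' median log2 change was 1.43 against 0.0204 over all genes, and 8 members did not overlap between the groups, against 17.3% of all genes higher without overlap.

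Ier2 had the smallest p of the members. It lay at 191, 206 and 239 CPM in Des+/+ swim and at 585, 565 and 825 CPM in Des-/- swim libraries, a log2 change of 1.64 (SE 0.24, edgeR adjusted p 0.00887). Junb rose from 299.5, 342 and 364 CPM to 959.7, 879.6 and 1519 CPM, by a log2 of 1.74 (SE 0.31, adjusted p 0.0125). Fos lay at 148, 120.3 and 194 CPM in Des+/+ and at 404, 444 and 786 CPM in Des-/- swim libraries, a log2 change of 1.82 (SE 0.39, adjusted p 0.0191). For all 3 genes the lowest Des-/- library was well above the highest Des+/+ library.

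Egr1 rose from 195, 385 and 219 CPM to 627, 618 and 1034 CPM, by a log2 of 1.51 (SE 0.35, adjusted p 0.0235). Jun went from 391, 266 and 360.2 CPM to 519, 614 and 775 CPM, the smallest called change of the members at a log2 of 0.91 (SE 0.25, adjusted p 0.0418). Fosb lay at 35.3, 20.4 and 43.4 CPM in Des+/+ and at 132, 145 and 216 CPM in Des-/- swim libraries, with a log2 change of 2.32 (SE 0.67, adjusted p 0.0486). None of the 3 overlapped between the genotypes.

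The remaining 4 members did not pass the test. Nr4a1 lay at 64.7, 141 and 166 CPM in Des+/+ and at 174, 228 and 534 CPM in Des-/- swim libraries, without overlap (log2 change 1.33, 95% interval -0.09 to 2.76, adjusted p 0.189). Ier3 lay at 64.3, 57.8 and 52.8 CPM and at 77.8, 104 and 103 CPM, also without overlap (0.70, interval -0.14 to 1.54, adjusted p 0.236). In an edgeR fit of the 6 libraries alone, Ier3 was called (0.71, adjusted p 0.0388). Atf3 and Myc overlapped between the groups. Atf3 lay at 53.5, 21.6 and 34.3 CPM and at 41.1, 57.1 and 108 CPM (0.91, interval -0.93 to 2.75, adjusted p 0.487), and Myc at 7.91, 11.3 and 5.55 CPM and at 7.11, 8.75 and 47.0 CPM (1.34, interval -0.61 to 3.29, adjusted p 0.33).

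**Figure D2:**
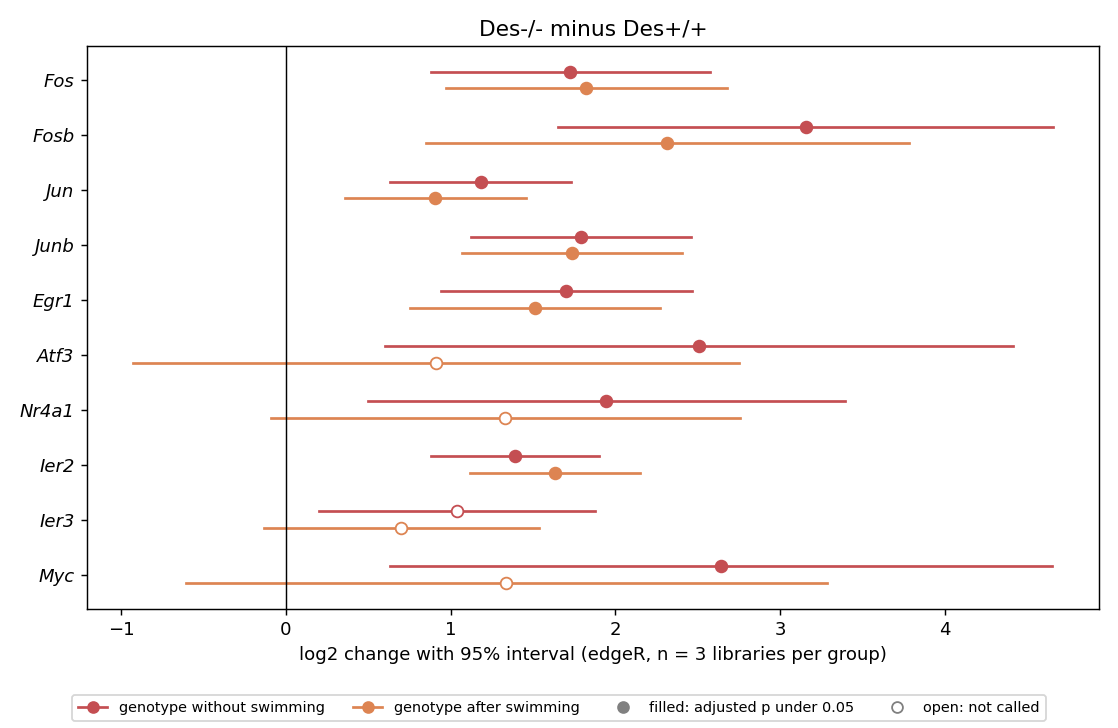
Log2 change of each member between genotypes (Des-/- minus Des+/+), without swimming and after it, with 95% intervals from edgeR over 3 libraries per group. Filled points passed an adjusted p of 0.05: 9 members without swimming and 6 after it.

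These calls were less stable than those without swimming. With 1 of the 6 libraries left out, 1 to 4 members were called, while the calls over all genes went from 1392 to between 74 and 817. Ier2 was called in all 6 fits, Junb in 5 (not without Des+/+ swim replicate 3), Egr1 in 3, Fos in 2, and Fosb and Jun in 0. Egr1 lost its call without replicate 1 or 3 of Des+/+ swim or replicate 3 of Des-/- swim, and Fos without any of the Des+/+ swim libraries or without Des-/- swim replicate 3. Without Des-/- swim replicate 3, the log2 change was 1.46 for Fos, 1.22 for Egr1, 0.69 for Nr4a1 and -0.08 for Myc. The change of Myc after swimming thus had the direction of that 1 library.

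**Figure D3:**
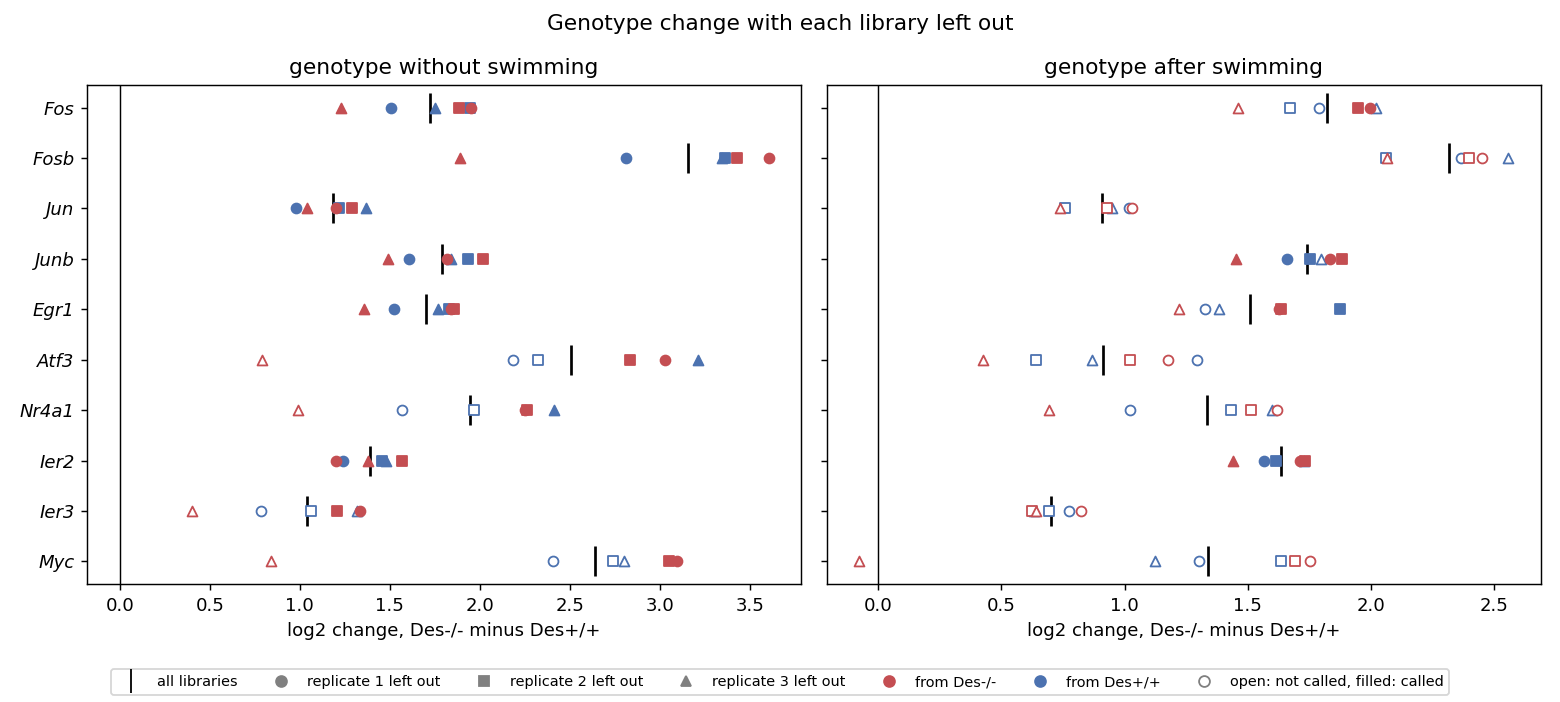
Log2 change between genotypes for each member with each of the 6 libraries compared left out in turn. Black bars are the values with all libraries, and open points were not called; without swimming, 6 members stay called in all 6 fits, and after swimming Ier2 does.

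Swimming itself was compared within each genotype. Genes called by edgeR were few, 12 of 13158 (0.0912%) in Des+/+ and 3 (0.0228%) in Des-/- libraries. Among them were 0 of 10 members in either genotype. DESeq2 called more, 798 of 13158 genes in Des+/+ and 339 in Des-/- libraries. It called 0 members in either genotype and gave Myc no adjusted p. At an unadjusted p under 0.05 there were 0 members in Des+/+ and 1 in Des-/- libraries. The members' median log2 change with swimming was -0.06 in Des+/+, where all genes had -0.08, and -0.43 in Des-/-, where all genes had -0.01. In Des+/+ libraries 4 members were above and 6 below 0, and in Des-/- libraries 1 was above and 9 below. The median in Des-/- changed sign, to 0.197, without Des-/- non-swim replicate 3, but was -0.177 without replicate 3 of both Des-/- groups. In the other fits leaving out 1 Des-/- library it ran from -0.749 to -0.249.

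In Des+/+ libraries the 95% intervals of all 10 members held 0. Fos went from a mean of 243 ± 74.9 to 154 ± 37.3 CPM (SD, n = 3), a log2 change of -0.66 (interval -1.49 to 0.17). Ier2 and Jun, the members with the narrowest intervals, had changes of -0.04 (-0.54 to 0.46) and -0.11 (-0.65 to 0.44). For Atf3 and Myc the interval was wide, from -1.34 to 2.35 and from -1.35 to 2.64.

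In Des-/- libraries Fosb had the largest difference, from 514 ± 525 CPM without to 164 ± 45.5 CPM (SD, n = 3) after swimming. Its log2 change was -1.65 (interval -3.06 to -0.23, unadjusted p 0.0262, edgeR adjusted p 0.256), the groups overlapped, and without Des-/- non-swim replicate 3 the value was -0.38. Ier2 was the member above 0, at 0.20 (interval -0.30 to 0.71). The difference between these swimming changes, the interaction of genotype and swimming, was tested in the same model, and 0% of all genes and 0 of 10 members were called by edgeR. The members' interaction terms ran from -1.60 for Atf3 (interval -4.19 to 0.99) to 0.25 for Ier2 (-0.47 to 0.96). Their smallest edgeR adjusted p was 0.496, and 0 members had an unadjusted p under 0.05. DESeq2 called 299 of 13158 genes for the interaction and 0 members, with no adjusted p for Myc.

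**Figure D4:**
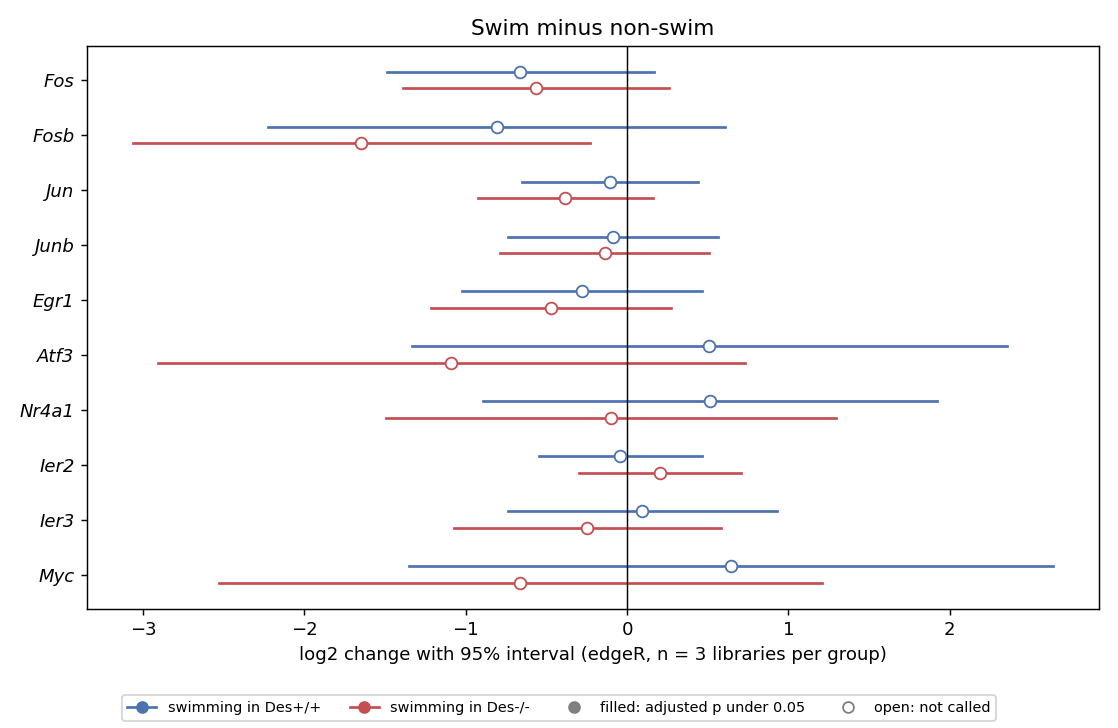
Log2 change of each member with swimming (swim minus non-swim) in Des+/+ and Des-/- libraries, with 95% intervals from edgeR over 3 libraries per group. All points are open, since none passed the adjusted p of 0.05; Fosb in Des-/- libraries, at -1.65, is the value whose interval leaves out 0.

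Across the 4 groups, Des-/- non-swim had the highest mean for 9 of 10 members and Des-/- swim for Ier2. The Des+/+ swim mean was above the Des+/+ non-swim mean for Atf3, Nr4a1, Ier3 and Myc and below it for the others. Groups of the same genotype overlapped for every member, and all 6 Des-/- libraries were above all 6 Des+/+ libraries for Fos, Fosb, Jun, Junb, Egr1, Nr4a1 and Ier2. Per kb of exon, the level in Des+/+ non-swim libraries was highest for Junb at 155 ± 36.5 and Ier2 at 143 ± 26.8 CPM per kb, and lowest for Myc at 1.95 ± 0.60 CPM per kb (SD, n = 3). On that scale Junb led in Des-/- non-swim libraries too, at 536 ± 195 CPM per kb.

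The summed level of the 10 members was 1203 to 2021 CPM in Des+/+ libraries and 3526 to 8456 CPM in Des-/- libraries. The 2 highest sums were those of replicate 3 of Des-/- non-swim (8456) and of Des-/- swim (5946), the libraries that also held the highest fibroblast and macrophage sums. In replicates 1 and 2 of Des-/- swim, the macrophage markers summed to 306 and 213 CPM, within the 204 to 308 CPM range of the Des+/+ libraries, and the fibroblast markers to 4157 and 3638 CPM. The cardiomyocyte markers summed to 23870 and 22990 CPM there, below the lowest Des+/+ library (29680 CPM). The members summed to 3526 and 3663 CPM in these 2 libraries, above every Des+/+ library. With both replicate 3 libraries left out, a fit chosen after seeing the data, 6 members were called without swimming and 5 after it. The median log2 changes of the 10 members were 1.21 and 0.99 there, against 0.0949 and -0.0106 over all genes. In the fit of all libraries, 14.0% and 5.01% of all genes were called higher.

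Over their whole lists, 8 of 8 fibroblast markers, 6 of 8 macrophage markers and 5 of 5 erythrocyte markers were called higher and 8 of 8 cardiomyocyte markers lower in Des-/- without swimming. After swimming the counts were 0 of 8, 0 of 8, 0 of 5 and 1 of 8, but the median log2 change between genotypes was still 1.18 for the fibroblast, 1.14 for the macrophage and -0.99 for the cardiomyocyte markers. Endothelial (8) and mural (6) markers had 0 calls in both comparisons, 1 of 3 neutrophil and 1 of 2 lymphocyte markers were called higher without swimming, and of 4 atrial markers 1 was called lower without and 1 higher after swimming. Of 9 heat shock genes known to rise when cells are isolated, 1 was called higher (Hspa1a, whose near-identical copy Hspa1b makes its count uncertain) and 2 lower without swimming, and 4 were called lower after it, among them Hsph1 at a log2 of -2.67. Their sums were 1442 to 2176 CPM in Des+/+ non-swim, 1585 to 3771 in Des+/+ swim, 1248 to 1413 in Des-/- non-swim and 1033 to 1403 in Des-/- swim libraries. The part of cell composition, or of the response to isolation, in the members' levels was not tested.

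**Figure D5:**
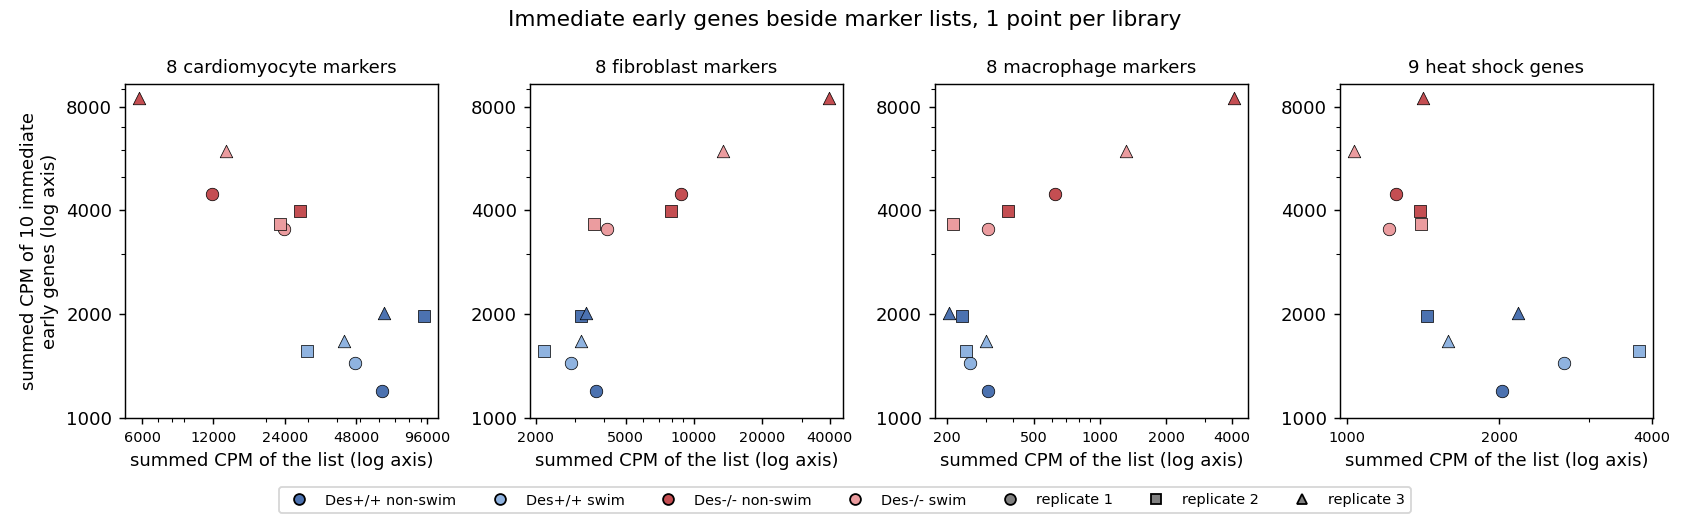
Summed CPM of the 10 immediate early genes against the summed CPM of cardiomyocyte, fibroblast and macrophage markers and of 9 heat shock genes, 1 point per library, all axes logarithmic. The Des-/- libraries lie at 3526 CPM or more and the Des+/+ libraries at 2021 CPM or less on the vertical axis, and replicate 3 of each Des-/- group lies farthest toward high fibroblast and macrophage sums.

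The members' levels were correlated across libraries. Correlations of log2 CPM between pairs of members over the 12 libraries ran from 0.522 (Atf3 and Ier2) to 0.974 (Fos and Fosb). These are descriptions over libraries that share depth and cell makeup, with 4 groups among the 12 points. Of 12158 genes compared, the one most like the members' mean pattern was Ppp1r15a (r = 0.971), which encodes a stress-induced phosphatase subunit. It was followed by Efemp2 (0.962), Egr2 (0.962), Fap (0.956), Dap (0.954), P3h3 (0.954), Cd52 (0.953) and Bgn (0.952), among which Efemp2 and Bgn encode matrix proteins and Cd52 a leukocyte surface protein. After the group means were subtracted, the closest genes were Cd52 (0.952), Fap (0.949), Ccn1 (0.948), Dot1l (0.947) and Slc39a6 (0.94).

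Of 38 tested other early response genes, out of 40 listed, 12 were called higher and 1 lower in Des-/- without swimming, where 14.0% of all genes were called higher, with a median log2 change of 0.93. Egr2, a relative of Egr1, rose from 5.39 ± 1.34 to 49.6 ± 61.4 CPM (SD, n = 3), a log2 change of 3.20 (SE 0.86, edgeR adjusted p 0.016). Ptgs2, the inducible cyclooxygenase, rose by 3.09 (SE 0.74, adjusted p 0.00926), Nfkbiz by 2.80 (SE 0.57, adjusted p 0.00439), Nr4a2 by 2.75 (SE 0.72, adjusted p 0.0139) and Ier5l by 1.08 (SE 0.19, adjusted p 0.00223). Homer1 fell by 1.27 (SE 0.24, adjusted p 0.00316). After swimming 2 were called, both higher, with a list median of 0.17, namely Btg2 (0.97, SE 0.26, adjusted p 0.0391) and Zfp36 (1.29, SE 0.37, adjusted p 0.0482), which encodes a protein that destabilises AU-rich mRNAs. Without Des-/- non-swim replicate 3 the count without swimming was 4 higher and 1 lower, and without Des-/- swim replicate 3 the count after swimming was 0 higher and 1 lower. DESeq2 called 5 higher and 1 lower after swimming. The 6 libraries alone gave 4 higher and 1 lower, and the replicate number as a block 3 higher and 1 lower.

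Of 15 other AP-1 genes, 5 were called higher without swimming and 0 lower, where 14.0% of all genes were called higher, with a median log2 change of 0.91. Jund, the Jun relative with steady expression, rose from 339 ± 80.6 to 635 ± 116 CPM (SD, n = 3), a log2 change of 0.91 (SE 0.29, edgeR adjusted p 0.0332). Maf rose by 1.36 (adjusted p 0.0204), Batf by 1.33 (0.0244) and Batf3 by 2.49 (0.0415), of which Batf and Batf3 are known from immune cells. Without Des-/- non-swim replicate 3, 0 of the 5 were called. After swimming Maf was called higher (1.46, adjusted p 0.0393) and Mafk lower (-0.55, adjusted p 0.0422), and the list's median was -0.01. With upper-quartile scaling or no filter, 1 was called higher and 0 lower after swimming. With the 6 libraries alone, 2 were called without swimming and 0 after it.

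Of 26 regulators that act upstream of the members, 5 were called higher, 6 lower and 15 not called without swimming, where 14.0% of all genes were called higher and 32.0% in either direction. After swimming 0 were called higher and 4 lower, where 10.6% of all genes were called, and the medians were -0.01 and -0.04. With no filter, with the 6 libraries alone or with the replicate number as a block, 2 were called lower after swimming and 0 higher. Srf, the serum response factor known to bind the Fos promoter, fell from 108 ± 19.4 to 66.6 ± 6.64 CPM (SD, n = 3) without swimming and from 92.8 ± 6.04 to 59.0 ± 2.13 CPM after it, log2 changes of -0.70 (SE 0.14, edgeR adjusted p 0.00395) and -0.65 (SE 0.14, adjusted p 0.0198). Mrtfa, a coactivator of Srf, rose by 0.90 without swimming (SE 0.19, adjusted p 0.00459). The kinase genes Mapk7 (0.84, adjusted p 0.0014) and Rps6ka1 (0.90, adjusted p 0.00242) and the CREB coactivator gene Crtc2 (0.41, adjusted p 0.0151) were higher, and Rps6ka5 (-0.83, adjusted p 0.0187) was lower. After swimming, Map2k1 fell by 0.50 (adjusted p 0.0384) and Mef2a by 0.66 (adjusted p 0.0481).

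Among 16 genes that feed back on this response, 1 was called in each genotype comparison, where 32.0% and 10.6% of all genes were called. Without swimming, 4 were called with upper-quartile scaling and 3 with DESeq2, and after swimming DESeq2 called 2. In the main fit the called gene was Nab2, a corepressor of Egr proteins, both times. It lay at 28.4 to 32.8 CPM in Des+/+ non-swim, 63.0 to 81.5 in Des+/+ swim, 41.9 to 57.1 in Des-/- non-swim and 42.9 to 51.0 CPM in Des-/- swim libraries. Nab2 was thus higher in Des-/- without swimming (log2 0.73, SE 0.15, edgeR adjusted p 0.00411) and lower after it (-0.63, SE 0.15, adjusted p 0.0257). With swimming it rose by 1.22 in Des+/+ (SE 0.15, adjusted p 0.0123), the one gene of the related lists called for swimming, and had -0.14 in Des-/- libraries (adjusted p 0.662). Its interaction of -1.36 (SE 0.21) had an adjusted p of 0.174 and did not pass. Of 10 tested genes of the Myc network, 0 were called in any comparison of the main edgeR fit. Between genotypes, Mxd3 without swimming (2.61, edgeR adjusted p 0.0585) and Max after swimming (-0.53, adjusted p 0.0595) had the smallest p-values. DESeq2 called 1 gene of this network in each genotype comparison, and edgeR with upper-quartile scaling called 1 without swimming.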

How the data were processed

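The authors deposited raw read counts per gene for each library. Per the submitters' processing notes and the study's methods, 100 bp single-end NovaSeq reads were aligned to GRCm38 with HISAT2 2.2.1, sorted with SAMtools 1.13 and counted with HTSeq in its reverse-strand mode. The labels name a TruSeq RNA v2 kit and the methods a directional kit, which was not settled here, so reads of overlapping antisense genes may be mixed. Reads in no gene (34.0% to 64.5% of unique alignments) were left out.

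Counts were fitted with edgeR 4.0.16 in R 4.3.3 (filterByExpr, TMM, a model of 4 group means over 12 libraries, quasi-likelihood F test, Benjamini-Hochberg over all genes, called under 0.05). SE is the log2 change over the root of F, CPM uses TMM-scaled totals, and likeness used log2 CPM with a prior count of 2. DESeq2 1.42.0, other scalings, no filter, the 6 libraries alone, a fit with the replicate number as a block and fits without each library were alternatives, and the procedure was tested on simulated counts. Figures were drawn with matplotlib 3.10.9. Depth of 4320819 or more reads puts the floor of 3 counts at 0.656 CPM or less, which covers counting error only, and the labels do not say whether libraries share animals. Libraries of a group differed far beyond sampling noise.

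The members, lists and tests were chosen with earlier results of these data known. Named are all members, Des, up to 6 called genes of each related list per comparison by smallest p (otherwise up to 3), and for likeness the 8 highest correlations and the 5 highest after subtracting group means, among genes averaging 20 or more counts; some genes counted in the lists are not reported here. Deviations of same-numbered Des-/- non-swim and swim libraries had correlations of 0.316 to 0.602, against -0.47 to 0.299 for different numbers. The highest was that of replicate 3, while those of replicates 1 (0.365) and 2 (0.316) lay near 0.299. For Des+/+ non-swim and swim libraries the order was the other way, -0.41 to 0.006 for the same number and -0.0623 to 0.331 for different numbers. The labels do not give pairs, and the main fit used none.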

Additional observations from a re-analysis of the deposited data

How the results depend on the processing

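All 10 members kept their direction between genotypes without swimming in every alternative, and after swimming all but Myc, at -0.0752 without both Des-/- replicate 3 libraries, which was chosen after seeing the data, or over the fits leaving out 1 library (-0.0769 to 1.75). Between 6 and 10 members were called without swimming and 5 to 7 after it, or 6 to 10 and 1 to 4 with 1 library left out, when calls over all genes ranged from 2612 to 4244 and from 74 to 817. Upper-quartile scaling moved the median of all genes from 0.04 to 0.14 and from 0.02 to 0.12, and the share of calls that were higher from 43.7% to 55.1% and from 47.3% to 67.5%. DESeq2 gave Myc no adjusted p, called Ier3 without swimming (adjusted p 0.0242) and called 2332 genes after swimming and 299 for the interaction. For swimming in Des+/+, 54 genes were called with median-of-ratios scaling, 58 with no filter, 798 with DESeq2, 282 with the 6 libraries alone and 0 to 6 with 1 library left out. For swimming in Des-/-, 7 were called with no filter, 339 with DESeq2, 0 with the 6 libraries alone, 72 without both replicate 3 libraries and 0 to 51 with 1 library left out. The cause was not tested.

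With the replicate block, 9 and 7 members were called between genotypes, where Ier3 (adjusted p 0.0376) and Nr4a1 after swimming (0.032) were gained and Myc without swimming (0.0505) was lost, and 19 genes were called for swimming in Des+/+. For swimming in Des-/- the block changed no member's call. Whether same-numbered libraries are pairs is not known from the labels.

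Changes with swimming that did not pass the test also changed sign. In Des+/+, Ier2 was 0.03 with the 6 libraries alone, and with 1 library left out Jun ran from -0.309 to 0.0824, Junb from -0.267 to 0.0577, Ier2 from -0.189 to 0.0478 and Ier3 from -0.16 to 0.37. In Des-/-, without both replicate 3 libraries, Atf3 was 0.14, Nr4a1 0.24 and Ier3 0.34, and with 1 left out Junb ran from -0.42 to 0.17, Atf3 from -1.61 to 0.63, Nr4a1 from -0.74 to 0.86, Ier3 from -0.55 to 0.40 and Myc from -2.08 to 1.14. For the interaction, Fosb was 0.11 and Ier3 0.17 without both, and with 1 left out Fos ran from -0.26 to 0.59, Fosb from -1.29 to 0.43, Junb from -0.34 to 0.24, Egr1 from -0.48 to 0.18, Atf3 from -2.30 to 0.12, Nr4a1 from -1.25 to 0.34, Ier3 from -0.64 to 0.30 and Myc from -2.72 to 0.49.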
